A study of Mus musculus with 30 samples.

Results

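The comparison described here set a βTC3 line labelled as expressing ALK7 against a control βTC3 line, both after activin B. βTC3 is a mouse insulin-producing pancreatic tumour cell line. The series held 30 libraries of 5 such lines, and the comparison used 6 of them: 3 titled PB33-ALK7 and 3 titled PB33, all from batch 1. All 6 cultures received doxycycline (DOX, the drug that switches the plasmid on) at 1 µg/ml for 24 hours and activin B at 50 ng/ml for 24 hours, so the control carried the plasmid backbone, the drug and the ligand as well. The same lines under DOX alone gave 6 further libraries, which served to show the line difference without the ligand. Wells were plated in triplicate. The p-values rest on the spread between wells within groups, estimated over all 30 libraries of the 5 lines, not over the 6 alone. With a spread from the 6 libraries alone, 49 genes were called in place of 699. With 1 line per construct, the construct and other differences between the lines cannot be told apart. Of 39017 genes in the count table, 15627 passed the filter on low counts and were tested. Levels are CPM, counts scaled to a common library size, differences are log2 fold changes of the ALK7-labelled line over control with their standard error, and a gene was called when its adjusted p from edgeR's quasi-likelihood test was under 0.05.

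ALK7 is a type I receptor of the activin and nodal branch of the TGF-β family. A ligand such as activin B brings together type II and type I receptors, the type I kinase phosphorylates SMAD2 and SMAD3, and these enter the nucleus with SMAD4. Target genes include negative feedback regulators such as Smad7, Skil, Pmepa1 and Bambi. In beta cells ALK7 is known for restraining insulin secretion, and in pancreatic neuroendocrine tumour cells activin B signalling through it has been tied to apoptosis.

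The gene for ALK7, Acvr1c (mm10 chromosome 2, 58267453 to 58357895, minus strand), was not higher in the libraries labelled ALK7. The control libraries with activin B read 96.9, 110 and 95.2 CPM, and the ALK7-labelled libraries 85.4, 74.7 and 81.8 CPM. All 3 labelled libraries lay below all 3 controls (log2 fold change -0.32 ± 0.10, adjusted p = 0.0795, not called). Under DOX alone the means were 165 ± 6.34 CPM (SD, n = 3) in control and 154 ± 11 CPM (SD, n = 3) in the ALK7-labelled line. The construct was therefore not visible in the Acvr1c counts; whether reads from the plasmid could be counted under Acvr1c was not tested, and the line is named below by its label only.

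The 6 libraries held 23204802 to 34740789 counts each. The beta cell markers Ins1, Ins2, Iapp, Pdx1 and Nkx6-1 were all present in every library, with Ins2 between 4117 and 6163 CPM, while Mafa reached only 2.59 to 13.1 CPM and Slc2a2 0.852 to 1.68 CPM. The summed level of the 7 beta cell markers was 10701 to 13076 CPM in control and 11316 to 13081 CPM in the ALK7-labelled libraries. The acinar genes Prss1, Cpa1 and Amy2a5, the fibroblast gene Col3a1 and the T cell gene Cd3e had no counts in the 6 libraries.

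Control replicate 2 stood apart from the other 5 libraries. On the first principal component, which held 38.4% of the variance, it lay at 44.9, and the other libraries lay between -27.2 and 6.41. It was low in GC-rich genes: the rank correlation across genes between its deviation from the group mean and transcript GC content was -0.67, against 0.61 and 0.43 in control replicates 1 and 3. In the ALK7-labelled libraries it was 0.35, 0.21 and -0.48. Deviations from a group mean balance out within the group, so the correlations of its libraries are not independent. The line difference itself correlated with GC content across genes, at 0.453 with all libraries, 0.139 without control replicate 2, 0.508 without ALK7-labelled replicate 3 and -0.0224 after a per-library correction for GC content. Its median was -0.12 in genes under 40% GC and 0.29 in genes over 61% GC, and without control replicate 2 these medians were -0.01 and 0.12. The totals below are given with that library, without it and after the GC correction, and activin B calls of named genes that were lost in either fit are stated.

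**Figure D1:**
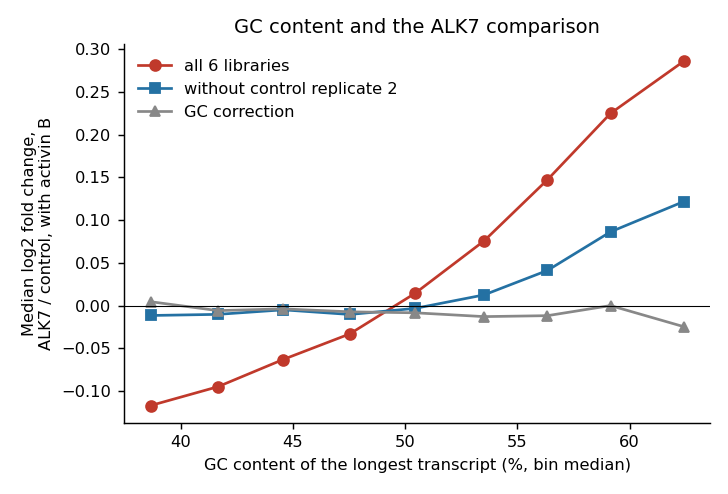
The plot shows the median log2 fold change, ALK7-labelled over control with activin B, for 9 bins of genes by GC content (x axis, % of the longest transcript), in the fit of all libraries, without control replicate 2 and with the GC correction. The slope with all 6 libraries runs from -0.12 to 0.29, is smaller without control replicate 2, and is flat after the correction.

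With all 6 libraries 699 genes were called (4.47% of those tested), 324 higher (2.07%) and 375 lower (2.4%) in the ALK7-labelled line. Groups that did not overlap at all were found for 10% of genes with the ALK7-labelled libraries on top and 11% with them below. Most differences were small: 28 genes were higher and 26 lower by at least 2-fold. Without control replicate 2, 384 genes were called (2.42%; 0.978% higher, 1.45% lower), and 352 genes were called in the same direction in both fits, 149 higher (0.953%) and 203 lower (1.3%). The GC correction called 1216 genes (7.78%; 2.94% higher, 4.84% lower), among them 342 of these 352. When only the 6 libraries entered the fit, in place of all 30 sharing one estimate of the spread, 49 genes were called (0.332%; 0.183% higher, 0.149% lower), and 164 when control replicate 2 was then left out as well. The gene lists described below held 74 called genes, of which 72 were called after the GC correction, 52 without control replicate 2 and 13 with only the 6 libraries: Adamts7, Bmf, Cacna1g, Igfbp4, Jam2, Krt7, Lss, Nts, Peg10, Scd1, Slit2, Sox4 and Spon2.

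Among the genes with the largest rise in the ALK7-labelled line were a matrix protease, a mechanosensitive channel and a calcium channel. Of the 15 named by size, 11 were also raised by activin B in each of the 3 lines outside the comparison in the GC-corrected fit, where 6.04% of all genes tested were: Adamts7, Adamtsl2, Piezo1, BC005764, Serping1, Gdpd5, Cacna1g, Amotl2, Spon2, Tmem132b and Ccdc147. Without the correction this held for 9 of the 11, not for BC005764 and Gdpd5, and for 4.57% of all genes. Naming by size asked for a mean of 2 CPM or more over the 6 activin B libraries, which favours genes that activin B raises. Adamts7, for example, stood at only 0.200 and 0.128 CPM in the 2 lines under DOX alone. The share among the 15 and the shares of all genes are therefore not on a like basis. All 15 were called after the GC correction, and 10 were called when only the 6 libraries entered the fit.

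Adamts7, a secreted metalloprotease of the extracellular matrix (chromosome 9, 90163069 to 90208071, plus strand), read 1.83, 1.07 and 1.38 CPM in control and 4.46, 4.14 and 3.63 CPM in the ALK7-labelled line (1.5 ± 0.23, adjusted p = 0.000221). Every labelled library was above every control library. Naming by size required this and a call without control replicate 2, so neither is separate support for a gene named that way. Piezo1, a mechanically gated cation channel (chromosome 8, 122481698 to 122551329, minus strand), read 13.2, 7.46 and 12.2 CPM against 29.4, 29.6 and 26 CPM. The groups did not overlap, control replicate 2 was the lowest library, and the fold change of 1.36 ± 0.20 (adjusted p = 0.00013) became 1.16 without it (adjusted p = 0.00121). Both genes were lower in both lines under DOX alone, Adamts7 at 0.200 and 0.128 CPM and Piezo1 at 2.26 and 2.03 CPM in control and ALK7-labelled cells. The difference between the arms was not called for either (interaction adjusted p = 0.241 and 0.0914).

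Spon2, which encodes a secreted matrix protein, stood at 44.8 ± 8.53 CPM (SD, n = 3) in control and 87.1 ± 3.37 CPM in the ALK7-labelled line (0.96 ± 0.14, adjusted p = 9.83e-05). Under DOX alone it was at 1.91 and 2.41 CPM. Cacna1g, the pore-forming subunit of a T-type calcium channel, rose from 3.41 ± 0.284 to 7.26 ± 0.943 CPM (1.09 ± 0.16, adjusted p = 0.000119). Amotl2, an angiomotin family scaffold protein, rose from 7.29 ± 1.00 to 14.9 ± 1.17 CPM (1.02 ± 0.14, adjusted p = 7.15e-05). Dbn1, the actin-binding protein drebrin, rose by 1.03 ± 0.17 (adjusted p = 0.00032), Adamtsl2 by 1.25 ± 0.23 (adjusted p = 0.00149) and Gdpd5 by 1.09 ± 0.22 (adjusted p = 0.00315). For Adamtsl2, Dbn1, Gdpd5, BC005764 and Ccdc147 the call was lost when only the 6 libraries entered the fit.

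A second set of genes differed between the lines with and without the ligand. The arms compared different libraries but shared the same estimate of the spread, so their calls are not independent. Under DOX alone 298 genes were called (1.91%, with 0.973% higher and 0.934% lower). Of these, 151 were also called with activin B, and all 151 had the same direction, 63 higher and 88 lower. They made up 21.6% of the activin B calls and 50.7% of the DOX calls. Of the 699 activin B calls, 618 had the same sign under DOX alone, against 52.4% of all genes tested.

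Slit2, an axon guidance ligand (chromosome 5, 47983138 to 48307733, plus strand), read 0.989, 1.24 and 0.814 CPM in control and 3.5, 3.79 and 3.88 CPM in the ALK7-labelled line with activin B (1.88 ± 0.21, adjusted p = 5e-06). Under DOX alone the 3 ALK7-labelled libraries were at 5.84, 6.02 and 5.86 CPM and the controls between 0.662 and 0.845 CPM (2.93, adjusted p = 9.74e-09). The labelled line was thus above control in both arms with no overlap. Peg10, an imprinted gene derived from a retrotransposon (chromosome 6, 4747306 to 4760517, plus strand), read 1.98, 2.23 and 1.42 CPM against 7.23, 6.10 and 5.26 CPM (1.73 ± 0.14, adjusted p = 5.09e-08). Its DOX-alone means were 4.03 ± 0.275 and 18.7 ± 1.56 CPM (SD, n = 3; 2.21, adjusted p = 1.39e-10). Serping1, which encodes the C1 inhibitor of the complement system, showed a similar size in both arms, 1.10 ± 0.11 with activin B (adjusted p = 8.62e-07) and 1.17 under DOX alone (adjusted p = 7.66e-07).

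The genes with the largest fall followed the line more often: 12 of the 15 named by size were called lower under DOX alone too, against 4 of the 15 named for a rise; the difference between these counts was not tested. Sorcs1, a sorting receptor of the VPS10 family (chromosome 19, 50143299 to 50678646, minus strand), read 12.8, 12.8 and 13 CPM in control and 6.08, 4.94 and 4.72 CPM in the ALK7-labelled line (-1.29 ± 0.08, adjusted p = 1.68e-10). With activin B all labelled libraries were below all controls, as naming by size required. They were below all controls under DOX alone too, where the means were 27.3 ± 0.962 and 14.6 ± 0.651 CPM. Homer2, a postsynaptic scaffold protein, was at 17.8 ± 0.270 and 9.82 ± 0.706 CPM with activin B (-0.85 ± 0.08, adjusted p = 4.99e-07), and the difference under DOX alone was -0.85 as well. Coch (-0.83 ± 0.07), Prkcb, a protein kinase C (-0.77 ± 0.09), the aminopeptidase Enpep (-0.75 ± 0.07) and Trim66 (-0.72 ± 0.06) fell in both arms. Kcnip4, which encodes a modulator of voltage-gated potassium channels, Fetub and Frrs1l were called lower with activin B and not under DOX alone. Fetub and Frrs1l had negative differences under DOX alone as well (-0.22 and -0.48). Their interactions were not called (adjusted p = 0.482 and 0.54). Of the 15, 8 were called when only the 6 libraries entered the fit, and Fetub and Frrs1l were not (adjusted p = 0.171 and 0.144). For Kcnip4 the control libraries read 11, 13.2 and 11.7 CPM and the ALK7-labelled ones 6.78, 6.55 and 7.19 CPM (-0.80 ± 0.11, adjusted p = 2.81e-05); the interaction with activin B was -0.70 ± 0.14 (adjusted p = 0.0795).

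**Figure D2:**
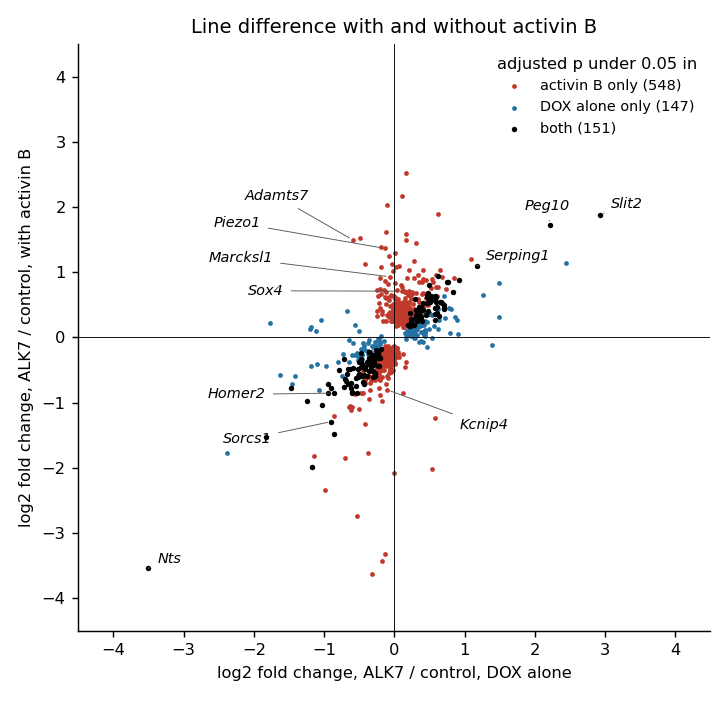
Each point is a gene called in at least 1 arm, with the log2 fold change of the ALK7-labelled line over control under DOX alone (x axis) and with activin B (y axis); colours show the arm of the call, and 4 called genes lie outside the axes. The 151 genes called in both arms fall in the lower left and upper right, with Slit2, Peg10 and Nts far from the origin, while Adamts7, Piezo1 and Kcnip4 differ mainly on the y axis.

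A test of the difference between the arms, the line by activin B interaction, called 4 genes (0.0256%), while 1564 genes had an unadjusted p under 0.05. DESeq2 called 33 and the GC-corrected fit 29 (0.186%). Marcksl1, which encodes a MARCKS family protein that binds actin and calmodulin (chromosome 4, 129513581 to 129515985, plus strand), had the largest interaction of the 4. With activin B it read 26.6, 22.4 and 24.2 CPM in control and 50.7, 47.9 and 41.0 CPM in the ALK7-labelled line (0.93 ± 0.09, adjusted p = 8.62e-07), and under DOX alone the groups were at 19.5 ± 1.23 and 18.6 ± 0.527 CPM. The lines did not overlap with the ligand and did overlap without it, and the interaction was 1.00 ± 0.13 (adjusted p = 0.00169).

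Sox4, a transcription factor of endocrine progenitors that also mediates TGF-β responses (chromosome 13, 28948919 to 28953713, minus strand), read 78.0, 81.5 and 73.6 CPM in control and 131, 128 and 122 CPM in the ALK7-labelled line (0.71 ± 0.07, adjusted p = 1.9e-07). Under DOX alone the means were 29.8 ± 2.19 and 32.0 ± 1.13 CPM, and the interaction was 0.60 ± 0.09 (adjusted p = 0.00931). Marcksl1 and Sox4 were the 2 genes called in the interaction without control replicate 2 (0.0126%). Their differences with activin B were 0.71 and 0.67 after the GC correction. Interaction values of single genes after that correction are not reported here. Dnm3, a dynamin GTPase, rose from 42.6 ± 1.81 to 54.6 ± 2.14 CPM with activin B (0.36 ± 0.07, adjusted p = 0.00135). Scgn, the calcium sensor secretagogin of endocrine cells, fell from 218 ± 11.5 to 164 ± 1.04 CPM (-0.41 ± 0.05, adjusted p = 2.18e-05). These 2 had interaction calls that were lost without control replicate 2. They were named here because the count was small, after their values were seen, and Scgn was also named as a list member.

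**Figure D3:**
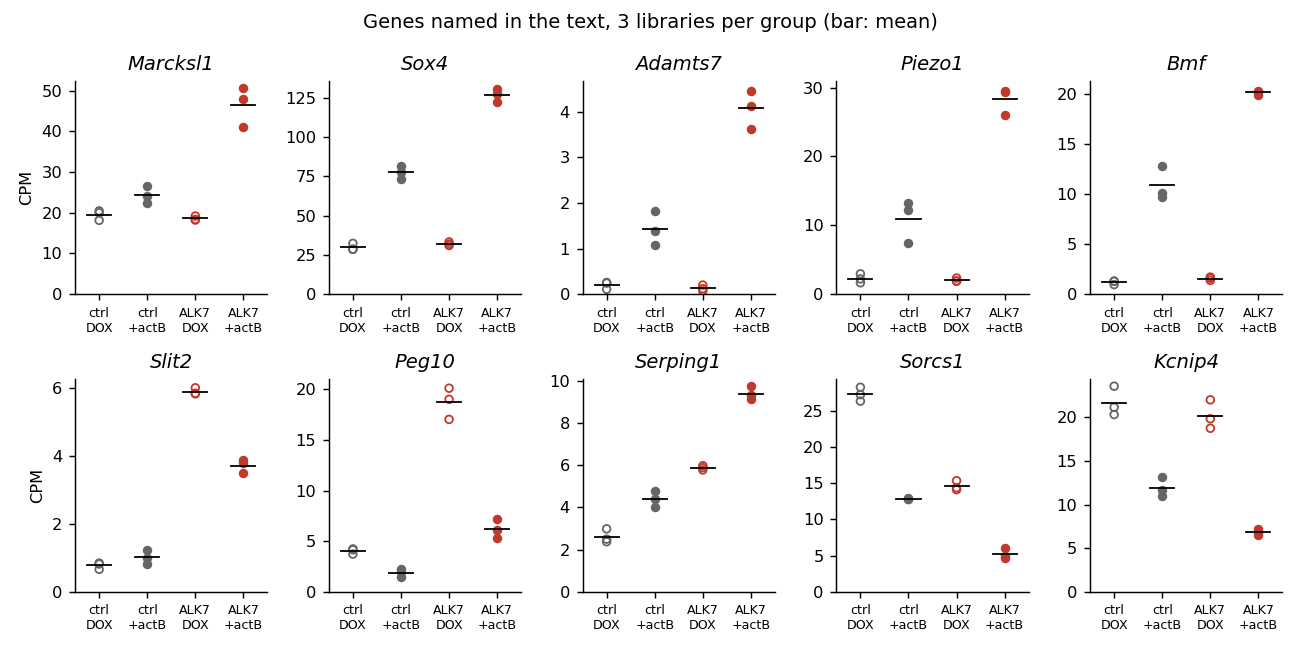
CPM (y axis, from 0) of 10 genes in each of the 3 libraries of the control and ALK7-labelled lines under DOX alone (open points) and with activin B (filled points), with bars at the means. Marcksl1, Sox4, Adamts7 and Piezo1 separate the lines with activin B. Slit2, Peg10, Serping1 and Sorcs1 separate them in both arms, as does Bmf, narrowly and without a call under DOX alone. Kcnip4 is lower in both lines with activin B and lowest in the ALK7-labelled one.

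Of the activin and TGF-β receptors, SMADs and ligands, 26 of 42 were tested and none was called by edgeR, with 8 at an unadjusted p under 0.05. The type I receptor gene Acvr1b stood at 30.9 ± 3.04 and 36.9 ± 1.87 CPM (0.26 ± 0.08, adjusted p = 0.0787) and Tgfbr1 at 158 ± 13.8 and 133 ± 5.83 CPM (-0.25 ± 0.09, adjusted p = 0.125). The type II receptors Acvr2a and Acvr2b had fold changes of -0.17 ± 0.09 and 0.20 ± 0.25. Of the signal-carrying SMADs, Smad2 stood at 111 and 104 CPM (-0.10 ± 0.05), Smad4 at 113 and 110 CPM (-0.04 ± 0.04), and Smad3 at 6.20 ± 0.666 and 6.23 ± 0.514 CPM (0.00 ± 0.09, with a sign that turned in 10 alternative fits). The GC-corrected fit called 1 member of this list higher and 1 lower, the latter Tgfbr1 (-0.16, adjusted p = 0.0204), and DESeq2 called 2 higher and 1 lower. Inhbb and Fst were not among the genes tested.

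Of 22 feedback regulators and SMAD2/3 targets tested, 2 were called higher and none lower by edgeR with all libraries, and the list's median was 0.07. Of all genes, 2.07% were called higher and 2.4% lower, and 2.94% higher after the GC correction. Without control replicate 2 none was called, and after the GC correction 5 were called higher and none lower. Bambi, a pseudoreceptor that dampens signalling, read 117, 106 and 111 CPM in control and 131, 137 and 125 CPM in the ALK7-labelled line (0.23 ± 0.06, adjusted p = 0.0188), and it was called higher under DOX alone too (0.24, adjusted p = 0.0327). Ldlrad4, which limits access of SMADs to the receptor, rose by 0.40 ± 0.11 (adjusted p = 0.0338). Neither call held without control replicate 2, with adjusted p of 0.113 for Bambi and 0.189 for Ldlrad4, and both were called after the GC correction (adjusted p = 0.0384 and 0.018). The inhibitory SMAD gene Smad7 was at 13.7 ± 1.63 and 16.9 ± 0.592 CPM (0.29 ± 0.11, adjusted p = 0.139), Pmepa1 at 73.8 ± 9.38 and 102 ± 10.5 CPM (0.46 ± 0.15, adjusted p = 0.0739) and Skil at 107 and 113 CPM (0.09 ± 0.07, adjusted p = 0.539). After the GC correction Pmepa1 (0.35, adjusted p = 0.0273) and Skil (0.17, adjusted p = 0.0276) were called higher, and Smad7 was not (0.12, adjusted p = 0.646). Of the 11 BMP and SMAD1/5 targets tested, Id2, an inhibitor of helix-loop-helix factors, was called lower (75.3 ± 0.882 to 59.7 ± 3.34 CPM, -0.34 ± 0.06, adjusted p = 0.000707), and it was lower under DOX alone too (-0.71).

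Cholesterol synthesis was the list with the most calls. Cells make cholesterol from acetyl-CoA through the mevalonate pathway, and the sterol-sensing factor SREBP-2 drives the genes of the pathway together. Of 24 members tested, 14 were called lower and none higher in the ALK7-labelled line, against 2.4% of all genes called lower. The median log2 fold change was -0.34 for the list and 0.01 for all genes tested. In 17 of the 24 the groups did not overlap, where 11% of all genes had all ALK7-labelled libraries below all controls. Without control replicate 2, 14 members were called lower, 12 of them the same genes, and after the GC correction 19.

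Promoters of 15 of the 25 members were matched in RefSeq (GRCm38.p6), and 4 are shown because their genes fell together. SREBP-2 is known to act with the factor NF-Y, which binds CCAAT. Each run is the 250 bases before the start, 5′ to 3′ on the gene's strand, with CCAAT or its reverse complement ATTGG and TCACNCCAC, a sterol element of SREBP, in capitals.
Hmgcs1 (chr13:119690101-119690350, plus strand): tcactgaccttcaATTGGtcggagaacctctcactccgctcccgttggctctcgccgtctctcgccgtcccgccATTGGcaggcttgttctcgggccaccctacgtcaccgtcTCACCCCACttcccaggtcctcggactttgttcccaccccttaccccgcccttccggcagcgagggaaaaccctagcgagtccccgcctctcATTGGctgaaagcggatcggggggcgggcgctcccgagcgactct
Lss (chr10:76531355-76531604, plus strand): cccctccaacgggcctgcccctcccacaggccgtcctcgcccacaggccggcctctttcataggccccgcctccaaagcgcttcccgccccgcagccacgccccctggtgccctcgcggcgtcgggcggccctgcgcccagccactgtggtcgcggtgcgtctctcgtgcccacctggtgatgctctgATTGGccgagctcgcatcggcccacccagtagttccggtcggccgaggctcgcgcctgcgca
Nsdhl (chrX:72918271-72918520, plus strand): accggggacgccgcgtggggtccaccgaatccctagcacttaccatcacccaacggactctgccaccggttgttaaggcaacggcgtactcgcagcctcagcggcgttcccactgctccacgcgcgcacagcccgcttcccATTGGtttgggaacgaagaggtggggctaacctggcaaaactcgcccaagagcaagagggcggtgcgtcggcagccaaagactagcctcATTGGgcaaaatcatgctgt
Cyp51 (chr5:4104698-4104947, minus strand): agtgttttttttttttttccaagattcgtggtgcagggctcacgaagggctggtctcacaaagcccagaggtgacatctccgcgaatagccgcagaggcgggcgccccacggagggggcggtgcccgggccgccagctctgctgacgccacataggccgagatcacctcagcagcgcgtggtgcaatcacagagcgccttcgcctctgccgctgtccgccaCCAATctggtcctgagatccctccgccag

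CCAAT on either strand was present in 13 of the 15 matched promoters, among them all 8 whose genes were called lower, and in 36.8% of 10412 promoters of tested genes over the same length. TCACNCCAC on either strand was in 1 of the 15, Hmgcs1, where it began 137 bases before the start, and in 0.941% of all promoters. The motifs were chosen after the expression values were seen, and a match is a description of the letters, not of binding.

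The genes called lower came from early, middle and late steps of the pathway. Hmgcs1, which makes HMG-CoA, read 463, 579 and 471 CPM in control and 298, 348 and 364 CPM in the ALK7-labelled line (-0.58 ± 0.09, adjusted p = 0.000165). Every labelled library was below every control. In the isoprenoid steps Fdps (-0.39 ± 0.08) and Fdft1, squalene synthase (-0.34 ± 0.06), fell, while Mvk (-0.04), Mvd (-0.16), Pmvk (-0.22) and the widely scattered Idi1 (0.40 ± 0.44) were not called.

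Sqle, which epoxidises squalene, read 249, 287 and 251 CPM in control and 183, 199 and 199 CPM in the ALK7-labelled line (-0.44 ± 0.06, adjusted p = 4.21e-05). Lss, lanosterol synthase, read 315, 282 and 293 CPM against 214, 215 and 226 CPM (-0.44 ± 0.05, adjusted p = 1.28e-05). Lss was the only member still called when only the 6 libraries entered the fit; 9 members were called in that fit when control replicate 2 was also left out, and 18 with the GC correction. Downstream of lanosterol, Cyp51 (-0.46 ± 0.07), Tm7sf2 (-0.44 ± 0.09), Nsdhl (-0.50 ± 0.07), Hsd17b7 (-0.35 ± 0.07) and Sc5d (-0.32 ± 0.07) fell, and the late enzyme gene Dhcr7 (-0.20 ± 0.06, adjusted p = 0.0682) was not called. The Sc5d call was lost without control replicate 2.

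Among the regulators and carriers, the sterol transfer protein gene Stard4 read 359, 429 and 369 CPM in control and 263, 270 and 282 CPM in the ALK7-labelled line (-0.51 ± 0.07, adjusted p = 4.02e-05). Insig1, which retains SREBP in the endoplasmic reticulum, was at 518 ± 44.5 and 401 ± 28.4 CPM (-0.37 ± 0.09, adjusted p = 0.0159, and adjusted p = 0.12 without control replicate 2). Srebf2, the gene of SREBP-2 (0.04), and the cholesterol exporters Abca1 (-0.12) and Abcg1 (0.13) were not called.

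Under DOX alone the same list had 3 members called lower, among them Lss and Sqle, and 22 of 24 with a negative log2 fold change (median -0.21). No member was called in the interaction, so the list was not shown to differ between the arms. Leaving out ALK7-labelled replicate 1 brought the count from 14 to 10.

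**Figure D4:**
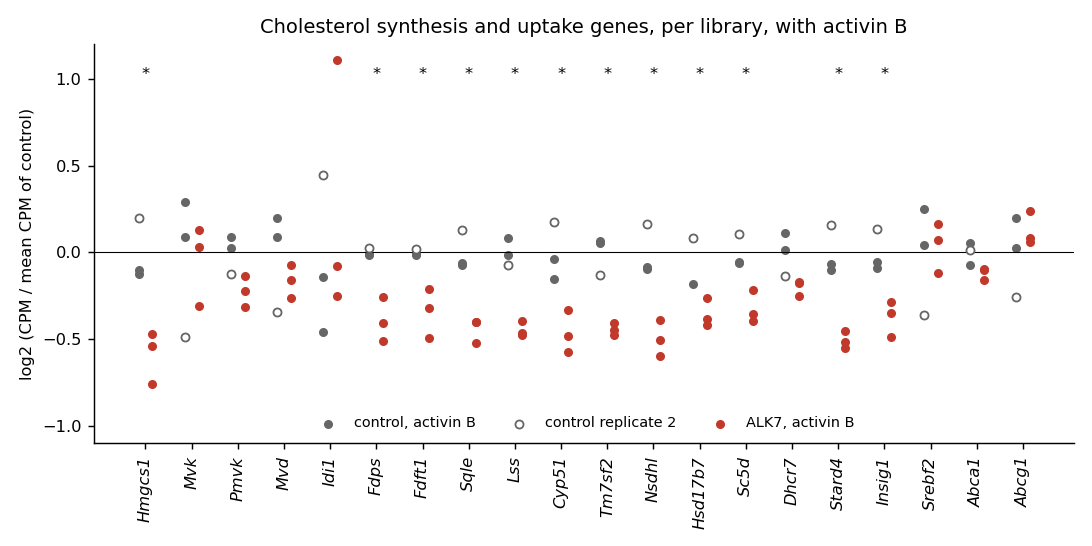
Each point is a library, plotted as the log2 ratio of its CPM to the mean of the 3 control libraries with activin B (y axis), for 20 of the 24 genes of the cholesterol list tested (x axis, in pathway order); open points mark control replicate 2 and asterisks the 12 genes called among them. The ALK7-labelled points lie below the control points for these 12 genes, and overlap them for Mvk, Mvd, Idi1, Srebf2 and Abcg1.

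Of 27 fatty acid genes tested, 7 were called lower and none higher, where 2.4% of all genes were lower; among the 7 were desaturases and elongases. The count was 6 without control replicate 2, 7 after the GC correction and 1, Scd1, when only the 6 libraries entered the fit, while the list's median over all 27 was -0.02. Scd1, the stearoyl-CoA desaturase (chromosome 19, 44394455 to 44407879, minus strand), read 444, 464 and 440 CPM in control and 306, 296 and 330 CPM in the ALK7-labelled line (-0.53 ± 0.07, adjusted p = 1.29e-05), with no overlap. The elongase Elovl6 fell from 24.8 ± 2.35 to 16.3 ± 1.60 CPM (-0.61 ± 0.08, adjusted p = 2.36e-05) and the desaturase Scd2 by 0.32 ± 0.05. Elovl5 (-0.30), Acsl1 (-0.23), Fads1 (-0.19) and the coactivator gene Ppargc1a (-0.58) were the other members called, and the Ppargc1a call was lost without control replicate 2. Scd2 and Elovl6 were called lower under DOX alone as well (-0.21 and -0.31).

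Of 17 endocrine progenitor factors tested, 5 were called higher and none lower, where 2.07% of all genes were higher. The list median was 0.35 and that of all genes 0.01. After the GC correction 4 were called and the list median was 0.21, and 1, Sox4, was called when only the 6 libraries entered the fit. Besides Sox4 they were Pax4, Hes6, Dll1 and Notch2. Pax4, a factor of the early beta cell lineage, read 80.2, 66.1 and 76.9 CPM in control and 107, 108 and 111 CPM in the ALK7-labelled line (0.54 ± 0.07, adjusted p = 4.21e-05), and it was higher under DOX alone too (0.50, adjusted p = 0.000751). Without control replicate 2 only Sox4 and Pax4 remained called. Hes6, a HES family protein, was at 64.9 ± 6.01 and 85.9 ± 4.79 CPM (0.40 ± 0.09, adjusted p = 0.00717), and its fold change was 0.10 after the GC correction (adjusted p = 0.72). None of the 20 beta cell transcription factors tested was called by edgeR, with all libraries, without control replicate 2 or after the GC correction, and none by DESeq2; 1 had an unadjusted p under 0.05.

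Of 30 genes of prohormone processing and granules, 3 were called lower and 1 higher, against 2.4% and 2.07% of all genes. Scg2, the granin secretogranin II, read 742, 927 and 826 CPM in control and 569, 568 and 605 CPM in the ALK7-labelled line (-0.52 ± 0.08, adjusted p = 0.000165), and with Scgn it stayed called without control replicate 2. Scg2 was called lower under DOX alone too (-0.35, adjusted p = 0.014). The call of Cadps2 (-0.30) was lost without control replicate 2. In the list for glucose sensing and insulin secretion, Trpm5, a calcium-activated cation channel, rose from 48.8 ± 4.53 to 63.6 ± 1.13 CPM (0.38 ± 0.06, adjusted p = 0.000217) and was higher under DOX alone too (0.61). After the GC correction the Trpm5 difference was 0.25 (adjusted p = 0.0204). Sytl4, the granule protein granuphilin, fell from 570 ± 33.7 to 434 ± 21.7 CPM (-0.39 ± 0.08, adjusted p = 0.002). The third call in that list, the amino acid transporter gene Slc38a4 (-0.21), was lost without control replicate 2.

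Among other hormones, 2 of 15 tested were called lower, against 2.4% of all genes. The neurotensin gene Nts was at 0.611, 0.857 and 0.637 CPM in control and at 0.0319, 0.0963 and 0.0363 CPM in the ALK7-labelled line (-3.54 ± 0.55, adjusted p = 0.00023), and the difference was of the same size under DOX alone (-3.51). Gip, the gene of an incretin hormone, fell by 0.46 ± 0.10 (11.3 ± 0.423 to 8.26 ± 0.884 CPM, adjusted p = 0.0094). Nppa, the natriuretic peptide gene, is outside the naming rule and was picked after its values were seen: it was at 1.77, 1.5 and 1.06 CPM in control with activin B, and in the ALK7-labelled line it had no counts in replicates 2 and 3, and read 0.0319 CPM in replicate 1 (adjusted p = 9.83e-05).

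Of 29 genes of cell death tested, 1 was called higher and 1 lower, near the 2.07% and 2.4% over all genes. Bmf, a BH3-only protein that promotes apoptosis (chromosome 2, 118528757 to 118549687, minus strand), read 12.8, 9.73 and 10.1 CPM in control and 20.3, 20.2 and 19.9 CPM in the ALK7-labelled line (0.89 ± 0.12, adjusted p = 7.02e-05). All labelled libraries were above all controls; under DOX alone the means were 1.17 ± 0.198 and 1.54 ± 0.168 CPM, and the interaction of 0.48 ± 0.21 was not called (adjusted p = 0.497). Bcl2l2, the survival protein BCL-W, fell by 0.18 ± 0.04 (adjusted p = 0.00515).

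In the matrix list 4 of 33 were called higher, Adamts7, Spon2, the laminin chain gene Lamb1 (0.54 ± 0.11) and the protease inhibitor gene Timp2 (0.47 ± 0.10), and 1 lower, the integrin gene Itga2 (-0.64), against 2.07% higher and 2.4% lower of all genes. Timp2 was not called without control replicate 2, and the GC correction called 5 higher and 2 lower. Jam2, a junctional adhesion molecule (chromosome 16, 84774123 to 84825928, plus strand), read 47.6, 53.8 and 45.0 CPM in control and 76.0, 79.7 and 81.4 CPM in the ALK7-labelled line (0.70 ± 0.10, adjusted p = 0.000121). The keratin gene Krt7 rose from 39.2 ± 1.63 to 60.5 ± 2.28 CPM (0.63 ± 0.07, adjusted p = 7.08e-06) and was higher under DOX alone too (0.59). Of 38 axon guidance genes, Slit2, the semaphorin receptor gene Plxnb1 (0.74 ± 0.13, adjusted p = 0.000675) and Efna5 (0.91 ± 0.27, adjusted p = 0.0496) were called higher; the Efna5 call was lost in 13 of 18 alternatives, among them the fit without control replicate 2.

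Of all genes, 2.07% were called higher and 2.4% lower, the shares against which the next lists are read. In the growth signalling list 3 of 29 were called higher, and all 3 were also called without control replicate 2: Peg10, the IGF-binding protein gene Igfbp4 (3.49 ± 0.286 to 6.41 ± 0.0566 CPM, 0.87 ± 0.13, adjusted p = 0.000204) and Pappa2, a protease of IGF-binding proteins (136 ± 6.63 to 192 ± 15.6 CPM, 0.50 ± 0.09, adjusted p = 0.00151). Like Peg10, Pappa2 was called higher under DOX alone too (0.71, adjusted p = 5.59e-05). Of 27 ATF4 stress response genes, 5 were called lower, among them the cystine transporter gene Slc7a11 (8.78 ± 1.26 to 5.57 ± 0.172 CPM, -0.65 ± 0.12, adjusted p = 0.00196), Cebpg (-0.36) and Vldlr (-0.35), and 3 without control replicate 2. Of 27 interferon genes, Rsad2 (-0.52), Ddx58 (-0.36) and Usp18 (-0.23) were called lower, and the Ddx58 call was lost without control replicate 2. Usp18 was called lower under DOX alone too (-0.23, adjusted p = 0.013). By edgeR no gene was called among 17 cyclins, kinases and CDK inhibitors, 30 mitosis genes or 30 oxidative phosphorylation genes, where 3, 3 and 1 had an unadjusted p under 0.05 and DESeq2 called 0, 1 and 0; the GC correction called 2 cyclin or kinase genes lower.

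The other lists held few calls, read here against the 2.07% higher and 2.4% lower of all genes. Lower were Lig1 (-0.14) and E2f8 (-0.19) of 30 DNA replication genes, with Lig1 at -0.23 after the GC correction, Pfkfb2 (-0.46) and Aldoc (-0.32) of 25 glycolysis genes, and Got1 (-0.25) and Slc7a2 (-0.29) of 20 serum protein and amino acid genes. Of 16 p53 targets, Btg2 (0.20), which was also the 1 call among 25 early genes, was higher and Perp (-0.37) and Plk2 (-0.37) lower. Without control replicate 2 none of these 3 was called, nor were Slc7a2, Tpm1 and Eif2ak3. Eif2ak3 (0.18), not called after the GC correction either (adjusted p = 0.0559), was the 1 call of 29 unfolded protein response genes, Tpm1 (0.25) joined Krt7 and Jam2 among 21 epithelial and mesenchymal genes, and Atp2a2 (-0.22) and Cacna1g were called of 29 channels and pumps. None of the 6 exocrine and duct genes or the 5 stromal, endothelial and immune genes tested was called by edgeR or DESeq2, with 2 of each list at an unadjusted p under 0.05; limma-trend called 1 exocrine or duct gene.

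The genes that differed between the 2 lines overlapped with those that activin B changed in the 3 lines outside the comparison. Libraries of those 3 lines did not enter the fold changes of the comparison, but all 30 libraries shared the same estimate of the spread. A gene with a small spread is more easily called in both, so the calls are not independent. The 3 lines were ALK7-DN, sh2 and sh1/2. By their labels the first expresses the construct ALK7-DN, and the others are ALK7 knock-down lines. In the GC-corrected fit, activin B raised 101 of the 149 genes called higher in both fits in ALK7-DN (67.8%), 107 in sh2 (71.8%) and 96 in sh1/2 (64.4%). Of all genes tested it raised 11.7%, 14.3% and 11.3%. Of the 203 genes called lower, activin B lowered 92 (45.3%), 104 (51.2%) and 107 (52.7%), against 11.3%, 13.5% and 13.9% of all genes.

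Seen from the other side, the 149 genes made up 5.54%, 4.78% and 5.43% of the genes raised in ALK7-DN, sh2 and sh1/2, and the 203 genes 5.22%, 4.92% and 4.93% of those lowered. Genes that went the opposite way were fewer: 8, 12 and 12 of the 149 were lowered, and 30, 20 and 18 of the 203 were raised. In ALK7-DN and sh2 the activin B and DOX-alone libraries came from different batches, so batch and ligand cannot be told apart there; in sh1/2 all were from batch 1.

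Single genes showed both cases. Bmf was raised by 2.48, 2.55 and 1.51 on the log2 scale in ALK7-DN, sh2 and sh1/2, and Piezo1 by 2.32, 2.93 and 1.46. Peg10, higher in the ALK7-labelled line, was lowered by activin B in the 3 lines (-0.53, -1.05 and -0.91), and Slit2 was not called in any of them. The cholesterol list did not follow one direction: after the GC correction 6, 3 and 4 of its 24 members were raised and 2, 5 and 8 lowered.

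**Figure D5:**
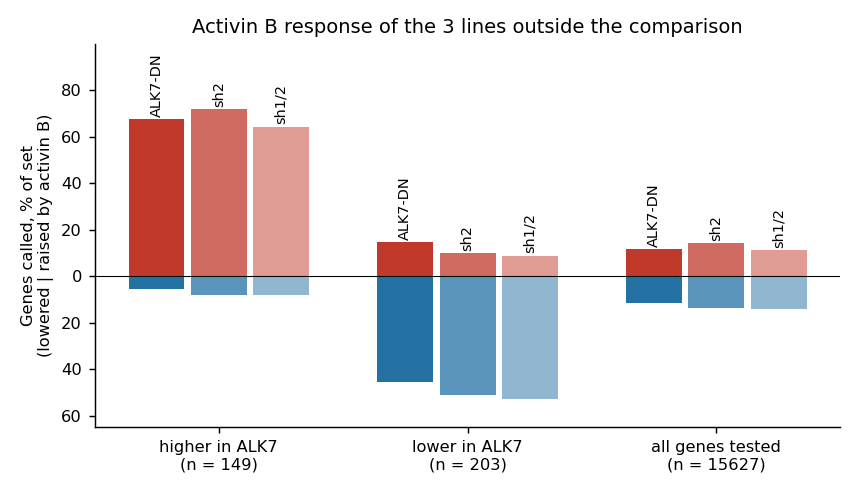
Bars give the share (y axis, %) of genes that activin B raised (upward) or lowered (downward) in ALK7-DN, sh2 and sh1/2 cells, in the GC-corrected fit, for the 149 genes called higher and the 203 called lower in the ALK7-labelled line and for all genes tested. Between 64.4% and 71.8% of the genes higher in the ALK7-labelled line were raised, and between 45.3% and 52.7% of those lower were lowered.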

How the data were processed

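Poly(A) RNA from βTC3 cells was sequenced from stranded libraries made from 500 ng of total RNA, per the labels' protocols. The authors deposited whole-number counts of reads per gene; the submitters' processing notes name bcl2fastq 2.17, cutadapt 1.4.2, HISAT2, featureCounts 1.4.4, edgeR and mm10. Whether counting used strand is not given in the sources used here, so overlapping genes on opposite strands may share reads. The 30 single-library files were identical to the series table. The deposited normalized log2 table was not used here.

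One edgeR 4.0.16 quasi-likelihood fit (R 4.3.3; filterByExpr, TMM, 10 group means, 30 libraries) gave the 3 contrasts, with Benjamini-Hochberg adjustment over 15627 genes. It was tested on simulated counts with the same spread for every gene and no GC trend or outlying library. That test therefore does not address the GC trend of these libraries. Per-gene CPM values are TMM-scaled, and those of the cell type markers use total counts. The GC correction used per-library loess offsets (span 0.5) with the GC content of the longest GENCODE M21 transcript, known for 98.9% of genes; gene coordinates are also from M21. Other settings, among them DESeq2 1.42.0 and limma 3.58.1, are listed in the closing section. Replicate libraries of the control and ALK7-labelled lines differed beyond sampling noise (chi-square per degree of freedom at least 7.74). The largest values, 43.3 and 25.4, were between control libraries with activin B. A spread shared with other groups may understate theirs.

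The genes and 29 lists were chosen with earlier results of these data known. Named genes were the activin pathway genes; up to 15 per direction with the largest fold change among genes called with and without control replicate 2, averaging 2 CPM or more, named other than as a clone or copy, and with groups that did not overlap; up to 4 called members per list by p; and up to 8 interaction calls per direction. Further list members are given as members. Values of some list members are not reported here, though the list counts include them.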

Additional observations from a re-analysis of the deposited data

Results flagged for a closer look

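4 genes stood out because the line difference with activin B differed from that under DOX alone by the test of the difference itself (edgeR, Benjamini-Hochberg over 15627 genes). The log2 difference of the differences was 1.00 ± 0.13 for Marcksl1 (adjusted p = 0.00169), 0.60 ± 0.09 for Sox4 (adjusted p = 0.00931), 0.54 ± 0.10 for Dnm3 (adjusted p = 0.0318) and -0.42 ± 0.07 for Scgn (adjusted p = 0.0318). All 3 ALK7-labelled libraries with activin B lay above all 3 controls for Marcksl1, Sox4 and Dnm3, and below them for Scgn. Without control activin B replicate 2 only Marcksl1 and Sox4 were called. Which of the 4 were called after the GC correction is not reported here.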

How the results depend on the processing

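The 699 calls with activin B became 49 with only the groups compared (27 higher, 22 lower) and 164 when control replicate 2 was also left out (73 and 91; added after seeing the data). They became 1216 with the GC correction (460 and 756), 582 with the GC correction in only the groups compared (233 and 349; added), 915 with DESeq2, 689 with limma-trend, and 476 with no low-count filter (229 and 247). Leaving out 1 library gave 361 to 927 calls (155 to 502 higher, 185 to 425 lower). The 298 calls under DOX alone became 761 with the GC correction and 198 with no filter, and 143 to 225 without 1 library. The 4 interaction calls became 1 with only the groups compared, 2 with only batch 1 or no filter, 8 with limma-trend, 9 with upper quartile factors, 29 with the GC correction and 33 with DESeq2, and 1 to 21 without 1 library.

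The replicate numbers were not shown to pair the libraries. With activin B the same-numbered deviations correlated at 0.32, -0.03 and -0.10, and under DOX alone at 0.153, 0.045 and 0.060. Not every library correlated best with its own number. The deviations also carry each library's GC trend, so these correlations cannot settle whether the replicates were paired. With the replicate block 727 genes were called with activin B, 277 under DOX alone and 3 in the interaction, and with the GC correction and replicate block 1213 (466 higher, 747 lower), 719 and 17.

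The Smad3 difference of 0.00 turned to -0.00403 with only the groups compared, -0.0777 when control replicate 2 was also left out, -0.0707 with the GC correction and replicate block, -0.0721 with the GC correction, -0.0725 with the latter in only the groups compared, -0.00415 with RLE factors, -0.00464 with upper quartile factors, -0.0110 with DESeq2, -0.0746 without control replicate 2 and -0.0669 without ALK7-labelled replicate 1; leaving out 1 library gave -0.0746 to 0.0780. Of the other named gene values under the alternatives, 1558 kept their direction and side of the threshold, 219 fell short of it and 13 newly passed it. The causes were not tested.

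With 3 wells per group and 1 library apart, small differences on the log2 scale are near what the spread allows to be called.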
